A study of Mus musculus with 8 samples.

Results

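Cell division needs a set of genes that are read late in the cell cycle, and 38 of them were followed here in mouse blood stem and progenitor cells. They were taken by symbol from a list of mitosis, kinetochore and spindle genes, 38 of the 53700 genes in the count table, and all 38 were among the 12132 genes that passed the filter on low counts. Cyclins and the kinase CDK1 drive entry into mitosis. Condensins and topoisomerase II compact the chromosomes, and kinetochores, the protein assemblies on centromeres, attach them to spindle microtubules. A checkpoint holds the anaphase-promoting complex in check until all chromosomes are attached, after which the cell separates its chromosomes and cleaves. Most haematopoietic stem cells of adult marrow rest outside the cycle, whereas multipotent progenitors cycle more often, and transcripts of these genes are widely used as a reading of how many cells in a population are dividing.

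Polyadenylated RNA was measured in 8 libraries that cross 2 cell types with 4 genotypes of the donor, with 1 library for each. The cell types were haematopoietic stem cells (HSC, CD48- CD150+) and multipotent progenitors (MPP, CD48+ CD150-), both sorted from the lineage-negative Sca-1+ Kit+ (LSK) fraction of marrow. The donors were DKO (Nfat5 fl/fl with Vav-Cre, and IFNAR1-deficient), N5 (Nfat5 fl/fl with Vav-Cre), IFNAR (IFNAR1-deficient, with no Cre named in the label) and WT (Nfat5 +/+ with Vav-Cre). Vav-Cre is active in blood-forming cells. In all 8 groups the cells carried CD45.2, had been grown for 13 weeks in irradiated CD45.1 wild-type recipients and were pooled from 5 mice, so every group had been through transplantation and none was replicated. Mouse ages are not given in the labels.

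Libraries held 28871693 to 47205950 counts, and 13510 to 14781 genes had a count. Levels are library-scaled counts (CPM, after TMM scaling), on which 3 counts, the detection floor, correspond to 0.0633 to 0.105 CPM; floors and intervals cover counting error only. The sorted types matched their markers. Summed over 12 stem cell markers the level was 2054 to 2389 CPM in HSC, against 384 to 505 CPM in MPP, with 12 of 12 higher in HSC, and over 10 progenitor markers it was 455 to 721 CPM in HSC, against 8094 to 13396 CPM in MPP, with 10 of 10 lower in HSC. Of other cell types, 8 megakaryocyte markers summed to 329.5 to 719.5 CPM in HSC, against 45.6 to 166 CPM in MPP, with 7 of 8 higher in HSC and Gp6 at 0 throughout. The 8 neutrophil markers summed to 551 to 632 CPM in HSC, against 546 to 1944 CPM in MPP, and 6 mast cell and basophil markers to 0 to 40.7 CPM in HSC, against 45.5 to 149 CPM in MPP. The sums of 9 erythroid, 8 monocyte and 8 B cell markers overlapped between the cell types. The 8 T and NK cell markers summed to 0 to 26.1 CPM in HSC, against 0 to 19.1 CPM in MPP, with Cd3d, Cd3e, Cd3g and Trac at 0 in all 8 libraries. The 7 stromal and endothelial markers summed to 46.7 to 125.4 CPM in HSC, against 125.8 to 238.5 CPM in MPP; Lepr, Col1a1 and Cdh5 were at 0 in all 8 libraries, and Pecam1, which blood cells also carry, averaged 56.9 CPM in HSC and 147 CPM in MPP. The targeted transcripts did not follow the genotype labels. Nfat5 had 35.5, 22.7, 3.12 and 33.2 CPM in HSC under the labels DKO, N5, IFNAR and WT, and 11.5, 7.69, 0.193 and 5.59 CPM in the MPP libraries in that order. Ifnar1 had 35.1, 126, 113 and 122 CPM in HSC and 125, 87.9, 43.8 and 37.2 CPM in MPP in the same order, so every direction given for either gene refers to the label. That order of genotypes is used for all values below, and means are given with SD over 4 libraries.

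All 38 mitosis genes had a lower mean in HSC than in MPP, from a ratio of 0.245 for Cenpe to 0.998 for Bub3, with a median ratio of 0.534; with RLE in place of TMM scaling the sign of the Bub3 difference turned, leaving 37. The median log2 fold change, HSC over MPP, was -1.01 (middle 50% of genes, -1.22 to -0.70), against -0.10 over all 12132 genes tested and -0.09 over the 7243 tested genes whose mean lay in the members' own range of 20.9 to 439 CPM. Together the 38 genes summed to 3639.9 CPM (DKO), 3362.8 CPM (N5), 3317 CPM (IFNAR) and 3623 CPM (WT) in HSC, against 6308, 5857, 6702 and 7193 CPM in MPP. The HSC sums thus stood within a narrow band, and the lowest MPP sum lay above the highest HSC sum. A smaller number of dividing cells and less of each transcript per cell cannot be told apart in pooled RNA. The megakaryocyte, the mast cell and basophil, and the stromal and endothelial marker sums above also did not overlap between the cell types, and their part in the result was not tested.

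Levels of 17 of the 38 members did not overlap between the cell types, all lower in HSC, where 5.65% of all genes tested were lower in HSC without overlap. In 25 members HSC was below MPP of the same genotype in 4 of 4 genotypes (12% of all genes tested), in 11 members in 3 of 4, and in Bub1 and Ttk in 2 of 4. The median member was lower in HSC within each genotype, by log2 ratios of -0.92 in DKO, -0.77 in N5, -0.99 in IFNAR and -1.14 in WT, with 34, 33, 35 and 35 of 38 members lower. None of the 38 passed edgeR's quasi-likelihood test with Benjamini-Hochberg adjustment at 0.05, by which 2 of 12132 genes, 0.0165%, were called. The smallest adjusted p was 0.121, for Incenp, and 21 members had an unadjusted p under 0.05, as did 10.1% of all genes tested. With 3 residual degrees of freedom and no replicate, this test rests on how far the difference between HSC and MPP varied from genotype to genotype. DESeq2 called 20 members, all lower in HSC, against 8.6% of all genes called lower, limma-voom called 2 (Top2a and Incenp) and 1.29% of all genes, and edgeR's bias-adjusted method called 1 (Top2a) and 0.882% of all genes.

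**Figure D1:**
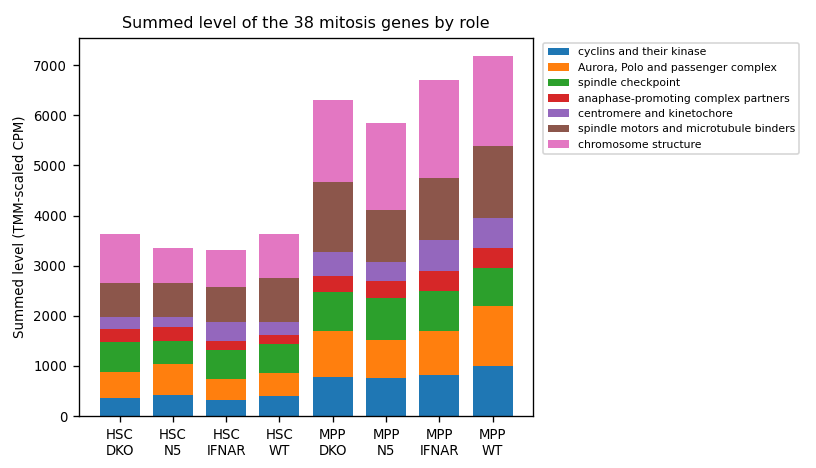
Stacked bars give the summed level (TMM-scaled CPM, axis from 0) of the 38 mitosis genes in each library, divided by role, with HSC libraries on the left and MPP libraries on the right. HSC bars end between 3317 and 3639.9 CPM and MPP bars between 5857 and 7193 CPM.

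The 4 genes that carry the cell into mitosis, 3 cyclins and their kinase, were each lower in HSC without overlap, with a median log2 fold change of -1.07. Ccna2, the cyclin of S and G2 phase, had 46.0, 113, 78.6 and 119.9 CPM in HSC, against 318, 288, 264 and 187 CPM in MPP. Ccnb2, a B-type cyclin that activates CDK1, had 99.8, 64.8, 90.4 and 45.5 CPM in HSC, against 126, 131, 181 and 210.4 CPM in MPP. Ccnb1, the main mitotic cyclin, had 93.5, 95.8, 80.4 and 109 CPM in HSC, against 185, 129, 166 and 322 CPM in MPP. HSC libraries stayed close together for Ccnb1, while the WT library stood highest among MPP for both B-type cyclins. Cdk1, the kinase they activate, had 113, 142, 71.9 and 123 CPM in HSC, against 156, 209, 208 and 272 CPM in MPP. The edgeR log2 fold changes were -1.63 ± 0.38 for Ccna2 (± SE here and below), -1.13 ± 0.34 for Ccnb2, -1.01 ± 0.23 for Ccnb1 and -0.93 ± 0.23 for Cdk1, with adjusted p from 0.279 to 0.383. Per kilobase of exon, Ccnb2 was among the most abundant members, at 49.1 CPM per kilobase in HSC and 106 CPM per kilobase in MPP. In Ccna2, 12.5% of the exon length overlaps Exosc9 on the opposite strand, and reads there cannot be told apart.

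The 6 chromosome structure genes had a median log2 fold change of -1.02, and 4 did not overlap. Top2a, the topoisomerase that untangles sister chromatids, had 228, 129, 224 and 243 CPM in HSC, against 561, 679, 834 and 613 CPM in MPP. The highest HSC library was thus far below the lowest MPP library, and the log2 fold change was -1.73 ± 0.23 (edgeR adjusted p = 0.139). Mki67, whose protein coats mitotic chromosomes and is the common stain for cycling cells, had 105, 40.9, 60.1 and 111 CPM in HSC, against 231, 119, 144 and 167 CPM in MPP, with a log2 fold change of -1.13 ± 0.22 and a narrow gap between the highest HSC and the lowest MPP library. Among the condensin genes, the ATPase gene Smc4 had 231, 235, 154 and 243 CPM in HSC, against 303, 430.4, 419.9 and 406 CPM in MPP, and the subunit gene Ncapd2 had 196, 177, 142 and 109 CPM in HSC, against 335, 291, 294 and 313 CPM in MPP. Neither overlapped between cell types (log2 fold changes -0.86 ± 0.20 and -1.02 ± 0.18). The other ATPase gene, Smc2, averaged 98.7 ± 27.0 CPM in HSC and 145 ± 33.4 CPM in MPP and overlapped through 1 HSC library. Ncapg, a condensin I subunit, had 149, 26.1, 25.3 and 69.7 CPM in HSC, against 84.5, 90.5, 129 and 108 CPM in MPP. Its DKO library lay above all 4 MPP libraries while N5 and IFNAR lay far below, and its log2 fold change of -1.02 ± 0.61 had the widest error in the group.

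**Figure D2:**
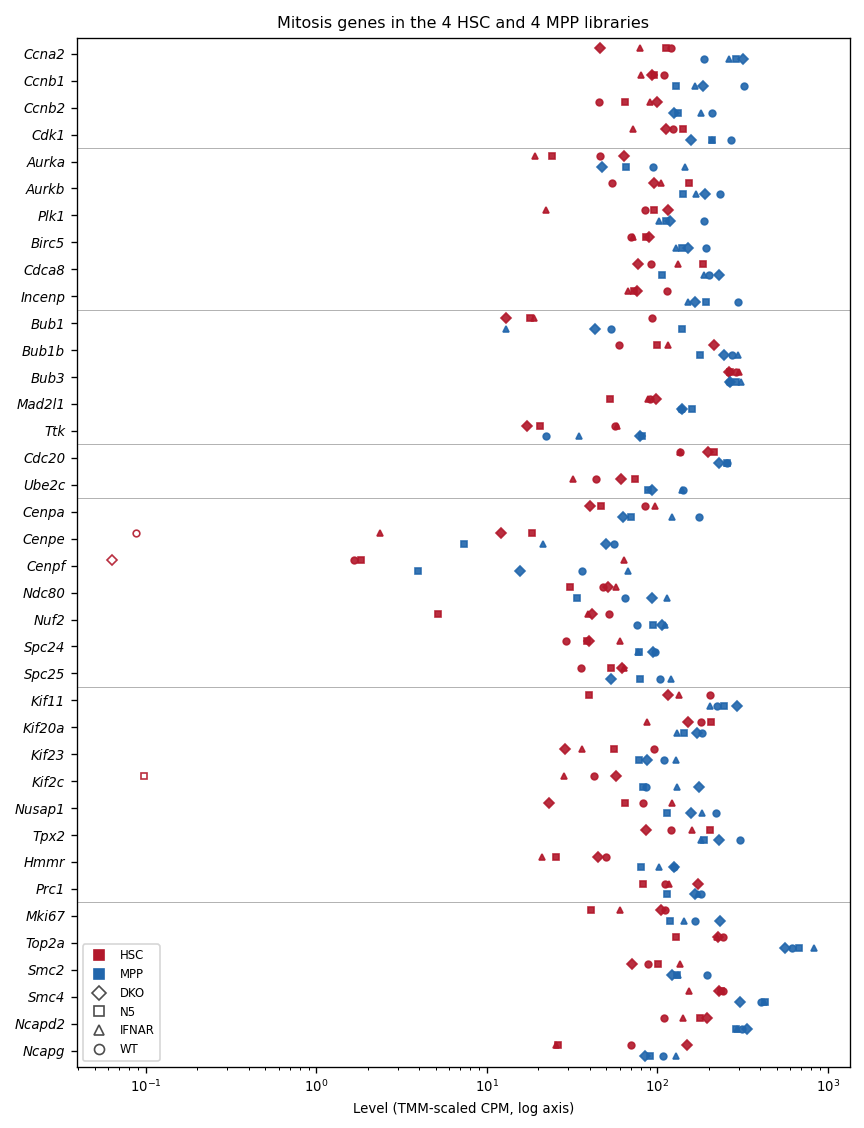
Each row is a gene, grouped by role with lines between roles, and each point is 1 library (TMM-scaled CPM, log axis), red for HSC above blue for MPP, with symbols for the 4 genotypes. Open points are libraries at 0, drawn at their detection floor of 3 counts. For Top2a the HSC points reach 243 CPM and the MPP points begin at 561 CPM, while for Bub3 the points lie on top of each other.

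Aurora and Polo kinases and the chromosomal passenger complex, which correct faulty attachments, had a median log2 fold change of -0.93. Incenp, the scaffold of the passenger complex, had 75.6, 73.1, 66.8 and 113 CPM in HSC, against 165, 193, 152 and 298 CPM in MPP. It was lower in HSC in each genotype by a similar ratio and had the smallest error of the 38 members apart from Bub3 (log2 fold change -1.28 ± 0.15). Birc5, which encodes the passenger subunit survivin, had 89.5, 85.4, 71.5 and 70.0 CPM in HSC, against 152, 139, 129 and 193 CPM in MPP and did not overlap (-0.94 ± 0.21, edgeR adjusted p = 0.278). The remaining passenger genes overlapped. Aurkb, the complex's kinase, averaged 102 ± 41.2 CPM in HSC and 184 ± 39.1 CPM in MPP, and Cdca8, which encodes borealin, had 77.3, 186, 132 and 91.2 CPM in HSC, against 231, 107, 187 and 201 CPM in MPP. In both, the N5 libraries went against the rest, with 154 CPM in HSC and 141 CPM in MPP for Aurkb. Aurka, the spindle pole kinase, averaged 38.2 ± 20.6 CPM in HSC and 87.8 ± 42.3 CPM in MPP. Plk1, the Polo kinase of mitotic entry and spindle assembly, had 116, 95.6, 22.2 and 84.97 CPM in HSC, against 118, 112, 103 and 188 CPM in MPP, below MPP of its own genotype in 4 of 4 genotypes but overlapping across them.

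The 5 spindle checkpoint genes differed among themselves, with a median log2 fold change of -0.80. Mad2l1, which encodes the inhibitor MAD2, had 98.1, 52.8, 88.1 and 90.4 CPM in HSC, against 140.0, 161, 139 and 137 CPM in MPP and did not overlap (log2 fold change -0.84 ± 0.26). Bub1b, which encodes the checkpoint protein BUBR1, had 214, 99.9, 116 and 59.3 CPM in HSC, against 247, 178, 297 and 275 CPM in MPP, with the HSC DKO library inside the MPP range (-1.15 ± 0.36). Bub3, the shared partner of BUB1 and BUBR1, had 264, 268, 303 and 289 CPM in HSC, against 266, 288, 308 and 264 CPM in MPP. Its means were 280.9 ± 18.6 CPM in HSC and 281.5 ± 20.6 CPM in MPP (SD, n = 4 each), its SE was 0.11 on the log2 scale, and its fold change was the smallest of the 38, so the difference was well within the spread between libraries and its sign was not determined. Bub1, the checkpoint kinase at kinetochores, had 13.0, 17.9, 19.0 and 92.4 CPM in HSC, against 42.8, 139, 12.9 and 53.5 CPM in MPP, and Ttk, which encodes the kinase MPS1, had 17.1, 20.5, 57.8 and 56.3 CPM in HSC, against 79.6, 80.8, 34.5 and 22.3 CPM in MPP. Both were spread so widely within each cell type that the log2 fold changes, -0.80 ± 0.85 for Bub1 and -0.54 ± 0.88 for Ttk, were smaller than their errors.

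Both partners of the anaphase-promoting complex were lower in HSC without overlap. Cdc20, its activator at anaphase onset, had 198, 216, 135 and 136 CPM in HSC, against 229.9, 255, 255 and 255 CPM in MPP, and 3 of the 4 MPP libraries were nearly equal. Its log2 fold change was -0.57 ± 0.19, and it had the highest level per length of all 38 members, 91.7 CPM per kilobase of exon in HSC and 133 CPM per kilobase in MPP. Ube2c, the ubiquitin-conjugating enzyme of the complex, had 61.2, 74.0, 31.8 and 43.8 CPM in HSC, against 92.9, 87.9, 139 and 141 CPM in MPP (-1.17 ± 0.41, edgeR adjusted p = 0.434). In Ube2c, 22.8% of the exon length overlaps Tnnc2 on the opposite strand, but Tnnc2 had 0 counts in all 8 libraries.

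The 8 motors and microtubule-binding proteins of the spindle had a median log2 fold change of -1.09, and 2 did not overlap. Kif2c, the microtubule depolymerase MCAK, had 57.0, 0, 28.2 and 42.4 CPM in HSC, against 175, 82.5, 130.0 and 85.5 CPM in MPP. No read was counted in the HSC N5 library. The log2 fold change was -2.62 ± 1.67 with that library and -1.62 without it. Hmmr, which links the spindle to its poles, had 44.6, 25.3, 21.1 and 49.8 CPM in HSC, against 125, 80.2, 102 and 125 CPM in MPP (-1.69 ± 0.29, edgeR adjusted p = 0.191). Nusap1, a microtubule bundler, had 23.3, 64.4, 121 and 82.8 CPM in HSC, against 158, 115, 183 and 221 CPM in MPP. Kif23, a motor of the central spindle, had 28.7, 55.4, 36.2 and 94.97 CPM in HSC, against 86.7, 77.8, 128 and 109 CPM in MPP. Kif11, the motor that pushes spindle poles apart, averaged 123 ± 67.2 CPM in HSC and 242 ± 39.4 CPM in MPP, and each of these 3 was lower in HSC in 4 of 4 genotypes while overlapping across them. Tpx2, the activator of Aurora A on the spindle, had 85.6, 202, 159.5 and 119 CPM in HSC, against 229, 187, 179.6 and 306 CPM in MPP, and Prc1, which cross-links the central spindle, averaged 121 ± 37.7 CPM in HSC and 158 ± 30.3 CPM in MPP, each lower in 3 of 4. Kif20a, a motor of cytokinesis, had 152, 206, 87.4 and 179 CPM in HSC, against 171, 144, 129.7 and 183 CPM in MPP, with a log2 fold change of -0.06 ± 0.22. Beside that small difference stands the largest exon overlap of the 38 genes: 29.3% of the Kif20a exon length lies opposite Cdc23, which had up to 11798 counts in a library, and the share of those reads in the Kif20a value was not tested.

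**Figure D3:**
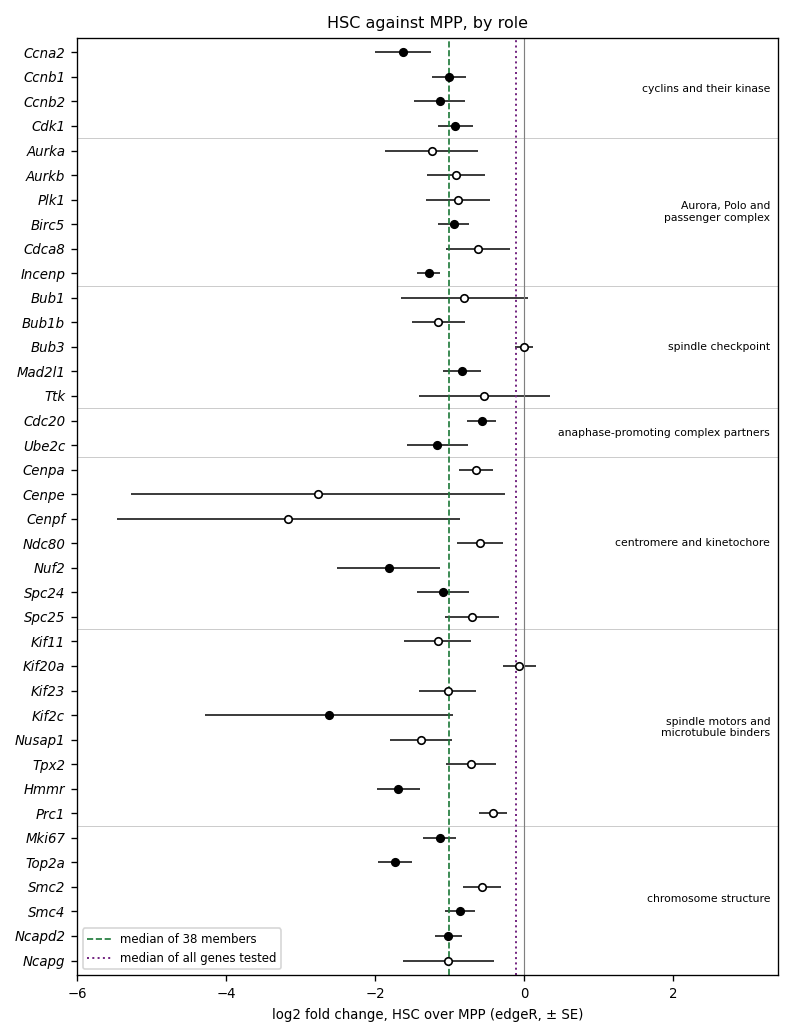
Points are edgeR log2 fold changes of HSC over MPP with their SE for the 38 genes by role; filled points are the 17 whose libraries did not overlap. The dashed line is the median of the 38 members, -1.01, and the dotted line the median of all genes tested, -0.10; Cenpf, Cenpe and Kif2c have the widest bars.

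The 7 centromere and kinetochore genes had a median log2 fold change of -1.09. The NDC80 complex binds microtubules with 4 subunits. Of these, Nuf2 had 41.3, 5.15, 39.0 and 52.0 CPM in HSC, against 107, 94.3, 111 and 76.3 CPM in MPP, and Spc24 had 39.5, 38.8, 60.5 and 29.0 CPM in HSC, against 94.6, 77.9, 76.8 and 96.8 CPM in MPP, neither with overlap (log2 fold changes -1.82 ± 0.69 and -1.09 ± 0.35). Without the low HSC N5 library the Nuf2 log2 fold change was -1.15. Ndc80 had 51.5, 30.7, 57.5 and 48.3 CPM in HSC, against 92.9, 33.7, 114 and 64.3 CPM in MPP, lower in 4 of 4 genotypes, and Spc25 averaged 53.7 ± 12.9 CPM in HSC and 89.0 ± 29.1 CPM in MPP, lower in 3 of 4. Cenpa, the histone variant that marks centromeres, had 40.4, 47.0, 96.7 and 84.6 CPM in HSC, against 63.0, 70.2, 121 and 175 CPM in MPP, lower in HSC in 4 of 4 genotypes but overlapping. Cenpe, the kinetochore motor that carries chromosomes to the spindle's middle, had 12.2, 18.4, 2.35 and 0 CPM in HSC, against 50.1, 7.34, 21.4 and 55.7 CPM in MPP, and Cenpf, a large outer kinetochore protein, had 0, 1.83, 63.7 and 1.65 CPM in HSC, against 15.5, 3.97, 66.8 and 36.4 CPM in MPP. These had the largest fold changes of the 38, -3.16 ± 2.30 for Cenpf and -2.77 ± 2.50 for Cenpe, and the largest errors. Each was at 0 in 1 HSC library, and with any 1 library left out the log2 fold changes ran from -4.74 to -1.74 for Cenpf and from -4.23 to -1.44 for Cenpe. They were also the least abundant members per length in HSC, at 1.09 CPM per kilobase for Cenpf and 0.956 CPM per kilobase for Cenpe.

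Spread between libraries was larger in HSC. The SD of log2 levels had a median over the 38 genes of 0.55 in HSC and 0.33 in MPP and was larger in HSC for 30 of 38. The same held for all genes tested, whose median SD was 0.79 in HSC and 0.59 in MPP, and for the 7243 genes in the members' range of levels, at 0.62 in HSC and 0.46 in MPP. Bub3 varied least in HSC and differed at most 1.15-fold between any 2 HSC libraries.

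The promoters of these genes share short sequences that the choice of members did not use. Late cell-cycle promoters are known to carry the CHR element, spelled TTTGAA, which is bound by the MuvB complex, and CCAAT boxes, which are bound by NF-Y. A variant CHR is spelled TTCGAA. RefSeq windows of 300 bases, from 250 before to 50 after the start (GRCm38.p6), matched 31 of the 38 members, and both strands were searched. The variant reads the same on both strands, and a CHR and a CCAAT match can share an edge base. CHR was present in the windows of 24 of 31 members (77.4%), against 14.7% of the 8927 tested genes with a window and 20.2% of all 27025 genes. The variant was present in 3 members (9.68%), against 2.54% of tested and 1.80% of all genes. A CCAAT box was present in 25 members (80.6%), against 43.9% of tested and 41.1% of all genes, and 17 members (54.8%) held at least 2, against 17.7% and 13.3%. Either CHR form within 50 bases of the start was found in 22 members (71.0%), against 4.47% of tested and 6.12% of all genes. The HSC over MPP log2 fold change had a median of -0.91 over these 22 members and -1.13 over the 9 searched members without it. Over the other tested genes its median was -0.29 for the 377 with it and -0.09 for the 8519 without it. A match is a stretch of letters and was not tested as a binding site.

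The windows shown are those of the 4 matched members with the largest log2 fold changes, Cenpf, Cenpe, Kif2c and Nuf2, and, chosen after their values were seen, Top2a, the largest fold change among the chromosome structure genes, and Cenpa, the largest by Nfat5 label among those with a level above 0 in every library. They read 5′ to 3′ on the strand of the gene, with CHR, its variant and CCAAT boxes on either strand in capitals. The Top2a window (chr11:99024140-99024439, minus strand) held 2 CHR, 2 variant and 6 CCAAT matches. The Cenpf window (chr1:189688037-189688336, minus strand) and the Cenpa window (chr5:30666636-30666935, plus strand) each held 1 CHR and 2 CCAAT matches, with CHR just after the start in both. The Cenpe window (chr3:135212313-135212612, plus strand) held 1 CCAAT match, and the Nuf2 window (chr1:169531415-169531714, minus strand) held none of the 3. The Kif2c window (chr4:117178723-117179022, minus strand) held 1 CHR match, but its last 30 bases were in no annotated Kif2c transcript, unlike those of the other 5 windows shown. Of all 33 member windows, 27 had their last 30 bases in an annotated transcript of the gene, and all 33 entered the motif counts above.
Top2a: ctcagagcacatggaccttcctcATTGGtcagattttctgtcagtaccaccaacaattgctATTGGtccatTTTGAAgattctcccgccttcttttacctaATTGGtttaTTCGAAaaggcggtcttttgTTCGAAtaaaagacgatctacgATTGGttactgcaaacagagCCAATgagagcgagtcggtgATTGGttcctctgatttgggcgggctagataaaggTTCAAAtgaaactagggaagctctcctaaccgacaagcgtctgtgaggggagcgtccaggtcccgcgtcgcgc
Cenpf: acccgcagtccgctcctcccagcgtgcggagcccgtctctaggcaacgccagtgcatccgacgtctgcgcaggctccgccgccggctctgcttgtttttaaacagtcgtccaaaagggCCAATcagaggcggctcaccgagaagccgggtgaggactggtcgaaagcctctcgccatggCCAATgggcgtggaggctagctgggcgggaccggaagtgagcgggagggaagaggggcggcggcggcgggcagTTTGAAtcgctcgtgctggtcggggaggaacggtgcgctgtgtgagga
Cenpa: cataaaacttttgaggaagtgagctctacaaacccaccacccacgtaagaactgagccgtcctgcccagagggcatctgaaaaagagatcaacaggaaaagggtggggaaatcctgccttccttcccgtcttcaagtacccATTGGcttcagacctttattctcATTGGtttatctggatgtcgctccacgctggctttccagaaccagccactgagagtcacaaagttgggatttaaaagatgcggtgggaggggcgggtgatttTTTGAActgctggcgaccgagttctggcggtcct
Cenpe: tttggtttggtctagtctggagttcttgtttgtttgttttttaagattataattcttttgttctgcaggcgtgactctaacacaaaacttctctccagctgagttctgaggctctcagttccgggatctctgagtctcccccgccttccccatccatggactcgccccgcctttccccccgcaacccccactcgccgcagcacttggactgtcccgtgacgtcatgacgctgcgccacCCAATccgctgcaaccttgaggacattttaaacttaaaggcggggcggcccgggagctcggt
Nuf2: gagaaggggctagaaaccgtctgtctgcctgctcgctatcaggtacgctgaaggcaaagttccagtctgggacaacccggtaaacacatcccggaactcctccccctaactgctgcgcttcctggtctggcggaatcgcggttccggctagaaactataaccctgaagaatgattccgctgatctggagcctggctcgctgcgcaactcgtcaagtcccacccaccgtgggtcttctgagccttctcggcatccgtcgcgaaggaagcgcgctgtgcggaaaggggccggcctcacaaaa
Kif2c: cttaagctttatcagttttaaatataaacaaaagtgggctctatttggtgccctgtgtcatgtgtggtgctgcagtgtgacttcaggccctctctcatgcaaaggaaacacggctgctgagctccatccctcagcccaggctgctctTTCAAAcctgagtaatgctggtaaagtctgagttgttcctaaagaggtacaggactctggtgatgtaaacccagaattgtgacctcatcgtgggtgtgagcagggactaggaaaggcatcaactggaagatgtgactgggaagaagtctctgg

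Further genes of the same machinery were taken from 6 lists, of which 128 of 129 genes were tested. By log2 fold change 106 were lower and 22 higher in HSC, with a median of -0.63. Without overlap 26 were lower and 1 higher, against 5.65% lower and 574 of 12132 higher over all genes tested. None was called by edgeR (0.0165% of all genes tested), and 21 had an unadjusted edgeR p under 0.05 (10.1% of all genes tested). DESeq2 called 30 lower and 2 higher, against 8.6% lower and 834 of 12132 higher over all genes tested. The same shares of all genes stand beside each list below. The 32 other spindle and cytokinesis genes all had a log2 fold change below 0, with a median of -0.96, and 10 did not overlap. Their means were not all lower. Kif18b averaged 27.3 CPM in HSC and 21.8 CPM in MPP, and Kifc1 14.1 CPM in HSC and 10.2 CPM in MPP. Of the 32, Spag5, a spindle-binding protein gene, had 0, 6.07, 26.6 and 0 CPM in HSC, against 52.8, 98.6, 111 and 65.1 CPM in MPP. Nek2, the centrosome kinase, had 0, 47.5, 0 and 24.98 CPM in HSC, against 68.1, 50.5, 65.8 and 55.4 CPM in MPP, and Kif18a, a motor that damps chromosome movement, had 46.4, 0, 0 and 53.3 CPM in HSC, against 22.5, 26.9, 37.4 and 80.0 CPM in MPP. Each of these 3 was at 0 in 2 HSC libraries and present in all 4 MPP libraries.

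Of 34 other kinetochore genes, 27 were lower in HSC, with a median of -0.68, and without overlap 4 were lower and 1 higher. The 1 higher was Zwint, with 233, 217, 210 and 289 CPM in HSC, against 192, 171, 205 and 172 CPM in MPP. Its log2 fold change was 0.35 ± 0.16. Zwilch, of the RZZ complex that recruits checkpoint proteins, averaged 19.3 ± 22.4 CPM in HSC and 62.7 ± 35.2 CPM in MPP, and Kntc1 of the same complex averaged 12.5 ± 10.8 CPM in HSC and 51.2 ± 29.0 CPM in MPP. Spdl1, the adaptor that joins RZZ to dynein, had 17.4, 0, 0.434 and 0 CPM in HSC, against 23.8, 23.5, 16.7 and 18.4 CPM in MPP. The 18 cohesin, other condensin and separase genes had a median of -0.66, with 16 lower and 5 without overlap. Sgo1, which shields cohesin at centromeres, had 15.9, 32.1, 18.04 and 18.7 CPM in HSC, against 55.6, 62.3, 119 and 92.3 CPM in MPP, and Haspin, the kinase that marks centromeres for the passenger complex, had 16.1, 5.94, 7.13 and 0 CPM in HSC, against 28.8, 47.2, 29.9 and 51.1 CPM in MPP. Pds5b, a cohesin regulator, averaged 14.1 ± 9.74 CPM in HSC and 63.6 ± 26.5 CPM in MPP. All 3 were lower in every HSC library than in any MPP library.

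Of 17 genes of the anaphase-promoting complex itself, 12 were lower, with a median of -0.20 that lay nearer to the median of all genes tested. Only 1 was lower without overlap, where 5.65% of all genes tested were. Among its subunits, Anapc5 averaged 586 ± 167 CPM in HSC and 823 ± 64.4 CPM in MPP, Cdc27 averaged 64.4 ± 36.7 CPM in HSC and 83.7 ± 22.1 CPM in MPP, and Fbxo5, an inhibitor of the complex, averaged 50.7 ± 23.5 CPM in HSC and 80.0 ± 19.8 CPM in MPP. The 11 kinases and phosphatases of mitotic entry had a median of -1.08, with 9 lower and 3 without overlap. The CDK1-activating phosphatase gene Cdc25c averaged 5.64 ± 6.56 CPM in HSC and 26.9 ± 20.4 CPM in MPP, its relative Cdc25a averaged 8.98 ± 7.60 CPM in HSC and 20.5 ± 10.3 CPM in MPP, and Mastl, the Greatwall kinase, averaged 5.13 ± 9.12 CPM in HSC and 20.6 ± 16.9 CPM in MPP. Of 16 tested regulators of mitotic genes, 10 were lower, with a median of -0.43. Foxm1, a factor that activates G2 and M phase genes, had 3.50, 0, 14.8 and 0 CPM in HSC, against 42.8, 20.2, 51.0 and 58.8 CPM in MPP, and its HSC levels lay below all MPP levels. Mybl2, the factor that works with MuvB, had 15.5, 11.2, 0 and 50.7 CPM in HSC, against 0.0566, 59.7, 48.4 and 161 CPM in MPP, overlapping, with a near absence in MPP DKO, and the repressor gene E2f8 averaged 26.3 ± 6.89 CPM in HSC and 56.6 ± 28.6 CPM in MPP.

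DNA replication genes, which act in S phase before mitosis, were set beside them. Of 38, 34 were lower in HSC, with a median of -0.75. Without overlap 16 were lower (5.65% of all genes tested) and none higher. None was called by edgeR, and 19 had an unadjusted edgeR p under 0.05 (10.1% of all genes tested). DESeq2 called 19 lower (8.6% of all genes tested) and 1 higher. Mcm10, which starts origin firing, had 41.6, 46.6, 15.8 and 17.6 CPM in HSC, against 109, 112, 127 and 125 CPM in MPP, and Rfc3, a clamp loader subunit, averaged 35.8 ± 20.6 CPM in HSC and 94.0 ± 14.4 CPM in MPP. E2f1, a G1 to S activator, lay the other way, with 18.7, 6.75, 24.0 and 13.1 CPM in HSC, against 4.87, 2.42, 7.51 and 3.94 CPM in MPP. The lower level in HSC was thus measured in both S-phase and M-phase lists, and the difference between the lists was not tested.

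**Figure D4:**
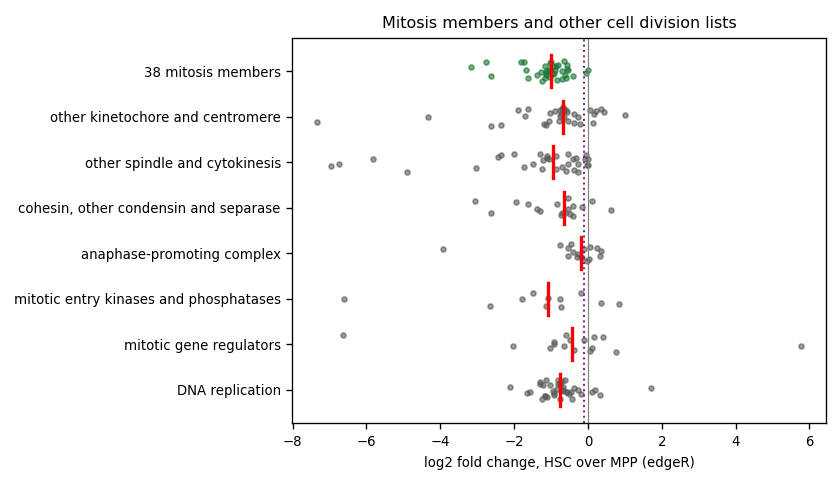
Each point is a gene's edgeR log2 fold change of HSC over MPP, for the 38 mitosis members (green, top row) and 7 other lists (grey), with the list median in red. The dotted line is the median of all genes tested, -0.10. List medians run from -0.20 for the anaphase-promoting complex to -1.08 for mitotic entry kinases and phosphatases, and the points farthest left include Spag5, Nek2 and Foxm1, each at 0 in 2 HSC libraries.

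By Nfat5 label the mitosis genes lay on both sides of 0. The median log2 fold change, Nfat5-deficient over Nfat5-intact, was -0.10, against 0.02 over all genes tested, with 23 lower and 15 higher. The edgeR test called none of the 38 and 0% of all genes tested, and 338 of 12132 genes (2.79%), of which 1 was a member, had an unadjusted p under 0.05. DESeq2 called 1 of 38 members, Cenpa, and 1.37% of all genes. The widest log2 fold changes by label, -3.13 ± 1.83 for Cenpf and 1.63 ± 2.06 for Cenpe, belong to genes with a library at 0 and with errors of that size. Within pairs of libraries that share cell type and Ifnar1 label, the member median of deficient over intact was 0.15 for HSC DKO over HSC IFNAR, -0.10 for HSC N5 over HSC WT, -0.02 for MPP DKO over MPP IFNAR and -0.49 for MPP N5 over MPP WT. In the MPP pair of N5 and WT, 28 of 38 members were lower in N5, where 6093 of all 12132 genes tested were. MPP N5 was the lowest of the 4 MPP libraries for 15 members, and MPP WT the highest for 17. The same counts were not made over all genes tested. Neutrophil marker sums in the same libraries were 546 CPM in MPP N5 and 1359.6 CPM in MPP WT. Progenitor marker sums were 8094 CPM in MPP N5 and 10583 CPM in MPP WT, and monocyte sums 522 and 832 CPM. Also lower in MPP N5 were erythroid (149 and 220 CPM), mast cell and basophil (45.5 and 81.4 CPM) and B cell sums (55.8 and 75.9 CPM). Stromal and endothelial sums were 126 and 137 CPM, and sums of 3 general blood cell markers 648 and 734 CPM. Other sums went the opposite way, with stem cell markers at 505 CPM in MPP N5 and 400 CPM in MPP WT, LSK markers at 1160 and 866 CPM, and megakaryocyte markers at 96.5 and 47.1 CPM. So did T and NK cell markers, at 5.97 and 0.397 CPM. The part of these markers' cells was not tested.

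Lower in the deficient library of all 4 pairs were 4 of 38 members (5.35% of all genes tested), and higher in all 4 was none (5.79% of all genes tested). Cenpa had 40.4 CPM in HSC DKO against 96.7 CPM in HSC IFNAR, 47.0 CPM in HSC N5 against 84.6 CPM in HSC WT, 63.0 CPM in MPP DKO against 121 CPM in MPP IFNAR, and 70.2 CPM in MPP N5 against 175 CPM in MPP WT. All 4 deficient libraries thus stood below all 4 intact ones, and the share of all genes tested that separate in this way was not counted. The log2 fold change was -1.10 ± 0.21 (edgeR adjusted p = 1). Nusap1 averaged 90.0 ± 58.7 CPM in deficient and 152 ± 61.9 CPM in intact libraries, with a log2 fold change of -0.90 ± 0.38. Kif23 averaged 62.1 ± 25.9 CPM in deficient and 91.9 ± 39.5 CPM in intact libraries (-0.57 ± 0.34), and Ndc80 averaged 52.2 ± 28.7 CPM in deficient and 70.9 ± 29.2 CPM in intact libraries (-0.50 ± 0.30). For these 3 the deficient and intact libraries overlapped, and the share of 4 in 38 was not tested against the 5.35% of all genes.

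**Figure D5:**
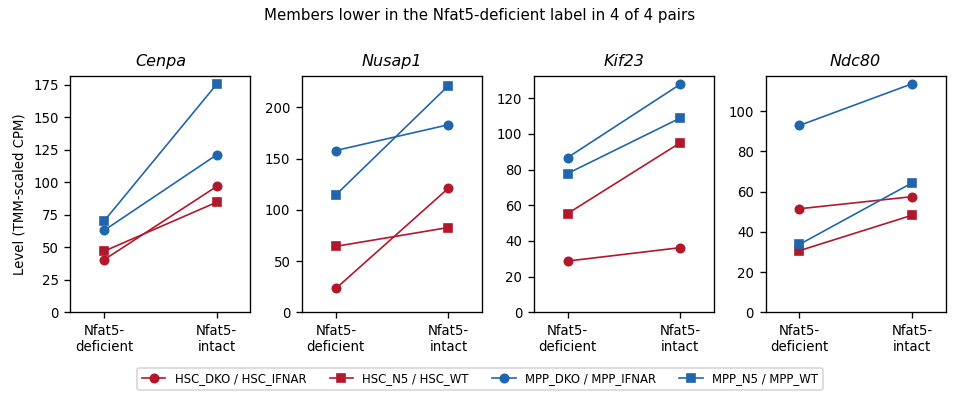
Lines join the Nfat5-deficient library (left) and the Nfat5-intact library (right) of the same cell type and Ifnar1 label for Cenpa, Nusap1, Kif23 and Ndc80 (TMM-scaled CPM, axis from 0), red for HSC and blue for MPP. All 4 lines go up from deficient to intact in each panel; for Cenpa the deficient points lie between 40.4 and 70.2 CPM and the intact points between 84.6 and 175 CPM.

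Some checkpoint and anaphase genes differed by Nfat5 label in opposite directions in the 2 cell types. Ttk had 17.1 and 20.5 CPM in the deficient HSC libraries, against 57.8 and 56.3 CPM in the intact ones, and 79.6 and 80.8 CPM in the deficient MPP libraries, against 34.5 and 22.3 CPM in the intact ones. Bub1 had 13.0 and 17.9 CPM in deficient HSC, against 19.0 and 92.4 CPM in intact HSC, and 42.8 and 139 CPM in deficient MPP, against 12.9 and 53.5 CPM in intact MPP. Both were thus lower with the label in HSC and higher in MPP. The other way round, Ube2c had 61.2 and 74.0 CPM in deficient HSC, against 31.8 and 43.8 CPM in intact HSC, and 92.9 and 87.9 CPM in deficient MPP, against 139 and 141 CPM in intact MPP. The checkpoint gene Bub1b also went this way, so the checkpoint genes did not share a direction. Bub1b had 214 and 99.9 CPM in deficient HSC, against 116 and 59.3 CPM in intact HSC. In MPP it had 247 and 178 CPM in deficient libraries, against 297 and 275 CPM in intact ones. The difference between the effects, HSC minus MPP on the log2 scale, was -3.10 ± 0.75 for Ttk, -2.92 ± 0.91 for Bub1 and 1.47 ± 0.43 for Ube2c, and 0.68 ± 0.23 for Cdc20. None passed edgeR's interaction test (adjusted p = 1 for each), which called 0% of all genes, and 6 members had an unadjusted p under 0.05, as did 4.42% of all genes. The 6 were Ttk, Bub1, Ube2c, Cdc20, Bub1b and Cdk1. Within pairs, Cdk1 was higher in the deficient libraries of HSC and lower in those of MPP, as Ube2c was. DESeq2 called 4 members, Ttk, Bub1, Ube2c and Cdc20, and 4.82% of all genes.

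By Ifnar1 label the median log2 fold change of the members, deficient over intact, was 0.01, with 19 lower and 19 higher, and edgeR called 0 members and 0% of all genes (398 of 12132 genes, 3.28%, at an unadjusted p under 0.05, 2 of them members). Bub1 and Cdk1 were lower in the deficient library of 4 of 4 pairs, where 6.16% of all genes were, with log2 fold changes of -1.80 ± 0.73 and -0.46 ± 0.22. Bub1b and Ndc80 were higher in 4 of 4, where 5.9% of all genes were, with 0.65 ± 0.33 and 0.82 ± 0.30. Neither share of the members exceeds that of all genes.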

How the data were processed

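Per the labels' protocols, polyadenylated RNA was purified with a column kit and copied with Smart-Seq2, which keeps neither strand nor molecule identifiers. STAR 2.7.8a, RSEM 1.3.0 and GRCm39 are named in the submitters' processing notes; the annotation release is not given in the sources used here. The authors deposited whole-number counts for 53700 genes, not normalized. Column names were matched to sample titles.

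Counts were tested with edgeR 4.0.16 (quasi-likelihood, TMM factors, filterByExpr by cell type, 12132 genes, Benjamini-Hochberg adjustment at 0.05) in R 4.3.3. HSC against MPP was fitted with a genotype block, which left 3 residual degrees of freedom, and the Nfat5 and Ifnar1 labels in an additive fit with cell type (4 residual degrees of freedom). The interaction of Nfat5 label and cell type left 3. Each group had 1 library pooled from 5 mice, so p-values measure only the spread between libraries left by the model. Ratios of single libraries used log2 CPM, to which a prior count of 2 was added. The test was checked on simulated data with less spread between libraries than these data, whose common dispersion in edgeR was 1.06 to 1.14. That check therefore does not show how the test behaves at the spread of these data.

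Alternatives were RLE size factors, no filter, 10 CPM in 4 libraries, DESeq2 1.42.0, limma-voom (limma 3.58.1), bias-adjusted quasi-likelihood, no genotype term, one Ifnar1 label only, and leaving out each library. No batch is named in the labels. The members and lists were chosen with earlier results of these data known. Every member is reported; values in every library are given for members without overlap, those in the same direction in 4 of 4 Nfat5 pairs, and the most abundant of each role, and other lists name up to 3 genes of largest log2 fold change with a mean of at least 10 CPM. Members and list genes beyond that rule were named after their values were seen. GENCODE M21, of the earlier build GRCm38, gave exon lengths and overlaps, and RefSeq gave promoters on GRCm38.p6, whose coordinates are not those of the counts.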

Additional observations from a re-analysis of the deposited data

Results flagged for a closer look

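Groups of 4 libraries were searched for a value apart from the other 3, for 38 genes in HSC and in MPP. In 7 of 76 groups the gap of the highest or lowest library, over the range, exceeded Dixon's 95% critical value. That value gives about 1 in 20 for normally distributed replicates, whereas these were CPM of 4 genotypes. The share over all genes tested was not counted, so the 7 are a list for a closer look only. Top2a had 129 CPM in HSC N5, against 224 to 243 CPM in the other HSC libraries. Bub1 had 92.4 CPM in HSC WT, against 13.0 to 19.0 CPM. Cenpf had 63.7 CPM in HSC IFNAR, against 0 to 1.83 CPM. Smc4 had 154 CPM in HSC IFNAR, against 231 to 243 CPM. Among MPP libraries, Cdc20 had 229.9 CPM in DKO with the other 3 at 255 CPM, Smc2 had 194 CPM in WT, against 122 to 132 CPM, and Mad2l1 had 161 CPM in N5, against 137 to 140.0 CPM. The 7 values are spread over 6 libraries, and with them included Top2a, Smc4, Cdc20 and Mad2l1 did not overlap between HSC and MPP. The flagged values of Top2a, Smc4 and Mad2l1 lay away from the other cell type and could not have made an overlap. Only that of Cdc20 lay towards it.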

How the results depend on the processing

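The median member was lower in HSC under every setting tried, while the number of calls varied. The median log2 fold change of the members stayed between -1.10 and -0.89 when each library was left out. Then 36 to 38 members were lower and 17 to 23 were without overlap. With fewer libraries any gene separates more easily, and the share of all genes tested without overlap was not counted at these settings. Calls over all genes, 2 by edgeR, became 23 with the 10 CPM filter, 1877 with DESeq2, 156 with limma-voom, 107 with the bias-adjusted method and 207 without the genotype term, and 0 to 0 with any 1 library left out, which leaves fewer samples. Called members, 0 by edgeR, became 20, 2, 1 and 3 with DESeq2, limma-voom, the bias-adjusted method and no genotype term. By Nfat5 label DESeq2 called 166 genes and 1 member, and in its interaction with cell type 585 genes and 4 members. By Ifnar1 label DESeq2 called 233 genes, and limma-voom and the bias-adjusted method 1 each. Members lower by Nfat5 label numbered 23 over all libraries and 15 in Ifnar1-deficient libraries alone, where their median was 0.09. Members lower in every Nfat5 pair ranged from 4 to 7 with 1 library left out, which leaves 3 pairs. Agreement in 3 pairs is easier for any gene than in 4, and the share of all genes tested was not counted there. In HSC over MPP the sign changed for 3 members. Bub3 had log2 fold changes of 0.027 with RLE factors and with DESeq2, 0.0020 with no filter and 0.0088 with the 10 CPM filter, and -0.049 to 0.029 with 1 library left out. Leaving out 1 library gave -0.26 to 0.11 for Kif20a and -1.22 to 0.11 for Ttk. By Nfat5 label the sign changed for 23 of 38 members when 1 library or another was left out. HSC against MPP was paired by genotype, and the counts without that pairing are those given for no genotype term. No paired analysis by replicate number was possible because each group has 1 library. The causes of these differences were not tested. Counting error is small at this depth, and the limit is 1 library per group.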
